A study of Mus musculus with 5 samples.

Results

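Forkhead (Fox) genes encode transcription factors that share a DNA-binding domain with a winged-helix fold, and their letters (FoxA, FoxC, FoxO and so on) mark subfamilies of related proteins. The members described here were all genes whose symbol has the form Fox plus a letter and a number and which had at least 1 probe set annotated to that gene alone. There were 33 such genes with 55 probe sets, out of 12393 genes in the table. RefSeq lists 44 mouse genes with symbols of this form, and the other 11 were not analysed here.

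The values came from 5 wild-type mouse embryo samples at E10.5 of 129P2/OlaHsd stock backcrossed to C57BL/6 for 2 generations. Each sample was a separate isolate of dissected tissue holding the pharyngeal arches, labelled as containing the second heart field, and 10 ng of its total RNA was amplified for an Affymetrix mouse 430A array. Nothing states the litters behind the isolates, so p-values speak only for these samples, whose spread may be partly technical. The variance behind the p-values was drawn partly from other probe sets of similar signal. All 5 samples form 1 group, so the comparison made for each gene was with the background level of its own array.

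Several forkhead genes are known regulators of the tissues collected here. Foxc1 and Foxc2 act in neural crest and mesoderm of the arches and outflow tract, Foxa1 and Foxa2 in the endoderm that lines the pharynx, and Foxd3 in early neural crest. Other members work in most cell types. FoxO factors are held out of the nucleus by insulin and growth factor signalling through AKT, Foxm1 drives genes of mitosis, and FoxK and FoxP proteins act largely as repressors.

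The data showed FoxC, FoxA, FoxD, FoxJ, FoxK, FoxM, FoxN, FoxO and FoxP signal in this tissue. Of the 33 forkhead genes, 13 were above background, a share of 39.4%, against 53.7% of all genes tested. Above background means that at least 1 probe set of the gene exceeded the array's background level with a Benjamini-Hochberg adjusted p below 0.05 in a one-sided limma fit. The 13 were Foxa1, Foxa2, Foxc1, Foxc2, Foxd1, Foxj2, Foxj3, Foxk2, Foxm1, Foxn2, Foxo1, Foxo3 and Foxp1. The excess of a gene is its log2 signal minus the level of the array, averaged over samples. The median excess was -0.17 log2 units for forkhead genes and 0.84 log2 units for all genes. Among other families of transcription factors, 4 of 11 T-box genes, 10 of 17 Sox genes and 11 of 31 Hox genes were above background, and the differences between families were not tested.

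In signal units the level stood at 17.6, 16.2, 19.3, 22.8 and 23.4 on the arrays of replicates 1 to 5. It was set from 178 probe sets of 148 genes. Their families were olfactory, vomeronasal and taste receptors, keratin-associated proteins, caseins, alpha interferons, defensins, protamines, and seminal vesicle and lymphocyte receptor genes. Signals are in the scaled units of the deposited table, and a signal cannot be compared between different probe sets, because probes differ in how well they bind. Transcription of a gene that did not pass cannot be dismissed, and in whole tissue fewer cells of a type and less RNA per cell cannot be told apart. Between pairs of arrays the median absolute difference over genes above background was 0.22 to 0.36 log2 units. It was smallest between replicates 1 and 2 and largest between replicates 1 and 4.

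**Figure D1:**
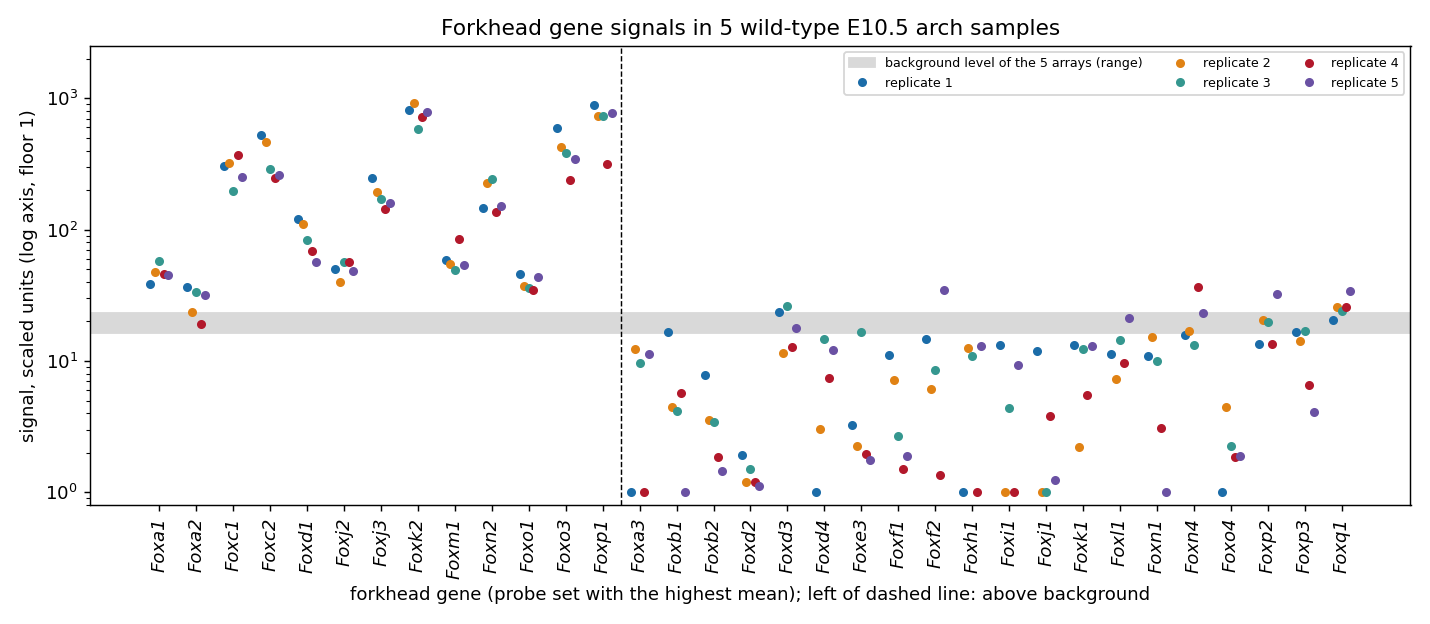
Signal of each forkhead gene (probe set with the highest mean, log axis, scaled units) in the 5 samples, 1 point per replicate, with the grey band marking the range of the background levels (16.2 to 23.4). The 13 genes left of the dashed line were above background, and 12 of them lay above the level of their own array in every sample, while Foxa2 did so in 4 of the 5.

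The labelled tissue was checked against marker genes. Of 17 measured genes of arch mesenchyme and neural crest 13 were above background, among them Twist1 (566 ± 85.5, SD, n = 5) and Prrx1 (1063 ± 216). Dlx5, Hand2, Alx4 and Snai1 were not. Of 14 second heart field and arch mesoderm genes only Isl1 (1387 ± 223), Mef2c (210.0 ± 26.0) and Tbx20 were above background, and defining genes of that field such as Tbx1, Fgf10, Fgf8 and Nkx2-5 were not. Pharyngeal endoderm gave 9 of 13, surface ectoderm 6 of 9, endothelium 5 of 11, erythroid cells 5 of 8, paraxial mesoderm 5 of 10, and neurons and neural tube 13 of 13. Leukocytes (1 of 9), forebrain (1 of 7), kidney (1 of 6) and liver and gut (1 of 8, a list that holds Foxa3) gave 1 gene each. With 53.7% of all genes above background, the shares for endothelium (45.5%), paraxial mesoderm (50%) and erythroid cells (62.5%) lay near that share, and no marker list was tested.

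Foxc1 and Foxc2, the paralogs best known in arch and outflow tract development, were both above background in every sample. Foxc1 had a signal of 304, 323, 197, 372 and 252 in replicates 1 to 5. Its mean lay at 289.8 with an excess of 3.85 ± 0.17 log2 units (SE), with adjusted p = 2.79e-18 (limma). Foxc2 had 528, 464, 289.6, 249 and 259, with an excess of 4.12 ± 0.20 (adjusted p = 1.05e-14, limma). Foxc2 was high in replicates 1 and 2, and the other 3 samples lay close together below them. On its probe set with the highest mean Foxc1 was not split in that way. Its high sample there, replicate 4, was the low sample of Foxc2. The second Foxc1 probe set was also above background, with 80.1, 74.1, 56.3, 57.4 and 62.1. On that probe set replicates 1 and 2 were high, as for Foxc2, and replicate 4 was not. The sample order of Foxc1 thus depended on the probe set.

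Both FoxC genes lie beside other forkhead genes in the genome. On chromosome 13 the RefSeq gene order is Foxq1, Foxf2, Foxc1 with 0 protein-coding genes between neighbours, and on chromosome 8 it is Foxf1, Foxc2, Foxl1 with 1 protein-coding gene, Mthfsd, between Foxf1 and Foxc2. In each cluster the FoxC gene was the 1 member above background, although Foxq1 passed under 3 of the 15 alternatives (90th percentile, sensory receptors only, and limma without trend and robust options; adjusted p = 0.00569, 0.0133 and 0.0480). Foxf1 and Foxf2, which act in mesenchyme next to endoderm under hedgehog signalling, had mean signals of 4.88 ± 4.18 and 13.1 ± 13.0 and were not above background. Foxf2 was uneven: it read 34.6 in replicate 5, above that array's level, and 14.7, 6.16, 8.52 and 1.35 in replicates 1 to 4. Foxl1, a mesenchymal gene of the gut wall, ranged from 7.26 to 21.2, below the level in every sample. Foxq1 gave 20.5, 25.6, 24.1, 25.9 and 34.1, above the level in all 5 samples by a small margin, but its excess of 0.39 ± 0.24 did not pass (adjusted p = 0.116, limma). These 4 neighbours had 1 probe set each, so their calls rest on single probe sets.

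The 250 bases before the start of Foxc1 and of its neighbour Foxf2 are shown because one gene of the pair was above background and the other was not. Sequences are from RefSeq, build GRCm38.p6, on the strand of the gene from 5′ to 3′. Capitals mark matches, on either strand, to the forkhead motifs TGTTTAC and TGTTTGC, to TATAAA and to CCAAT.
Foxc1, chr13:31806396-31806645, plus strand: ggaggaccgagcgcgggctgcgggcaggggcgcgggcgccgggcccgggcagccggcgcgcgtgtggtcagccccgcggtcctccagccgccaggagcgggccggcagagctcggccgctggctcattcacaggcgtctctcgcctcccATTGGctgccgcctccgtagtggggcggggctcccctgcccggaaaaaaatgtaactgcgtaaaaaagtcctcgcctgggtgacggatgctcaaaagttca
Foxf2, chr13:31625566-31625815, plus strand: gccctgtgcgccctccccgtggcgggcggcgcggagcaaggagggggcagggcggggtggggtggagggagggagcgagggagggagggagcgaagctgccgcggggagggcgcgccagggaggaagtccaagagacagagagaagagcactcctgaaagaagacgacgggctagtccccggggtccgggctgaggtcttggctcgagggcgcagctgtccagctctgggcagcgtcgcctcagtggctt
The Foxc1 window held 29 CpG dinucleotides and 1 CCAAT match, and the Foxf2 window 21 CpG dinucleotides and no CCAAT match. Neither window held a forkhead motif or TATAAA. The GC box GGGCGG was found 1 time in the Foxc1 window and 2 times in the Foxf2 window, so these letters occur before both genes.

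Foxa1 and Foxa2, pioneer factors of endoderm, were above background and Foxa3, known from liver and gut, was not. Foxa1 read 38.3, 47.8, 58.0, 46.3 and 45.1 in replicates 1 to 5, an excess of 1.25 ± 0.20 log2 units (adjusted p = 1.43e-06, limma). Every sample of Foxa1 lay above its level, and replicate 3 was the high one. Foxa2 read 36.7, 23.7, 33.6, 19.1 and 31.6, an excess of 0.52 ± 0.24 (adjusted p = 0.0420, limma). Foxa2 is a borderline call: replicate 4 lay below its level of 22.8, and the call was lost when replicate 1, 2, 3 or 5 was left out (adjusted p from 0.0591 to 0.183). Foxa3 ranged from 0.573 to 12.3 and stayed under the level in all samples. The endoderm list, which holds none of the FoxA genes, had 9 of 13 genes above background, with Sox2 at 266 ± 84.3 and Pax1 at 114 ± 55.9. Pax1 is also on the paraxial mesoderm list. Shh, an endodermal signal that FoxA proteins are known to control, was not above background (10.2 ± 3.43). Nor were Nkx2-1 (22.8 ± 11.9), Pax9 (23.4 ± 10.4) and Gata6 (24.3 ± 8.86) of the endoderm list.

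The sequence before Foxa1 is shown because, of the 26 windows of 21 forkhead genes that RefSeq matched, it was the 1 with TGTTTAC, read here on the other strand.
Foxa1, chr12:57546112-57546361, minus strand: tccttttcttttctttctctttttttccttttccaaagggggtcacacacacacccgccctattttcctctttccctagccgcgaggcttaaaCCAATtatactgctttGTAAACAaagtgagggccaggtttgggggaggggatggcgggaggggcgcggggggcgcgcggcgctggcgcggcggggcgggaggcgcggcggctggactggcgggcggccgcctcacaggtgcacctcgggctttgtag
TGTTTAC was in 3.17% of all 32851 promoter windows of that length, and TGTTTGC was in 4.30%. TGTTTGC was found in 2 forkhead windows, one before Foxj3 and one before Foxp1. A match to these letters is a description of the window and not evidence of binding.

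Of the FoxD genes, Foxd1 was above background and Foxd2, Foxd3 and Foxd4 were not. Foxd1, known from kidney stroma and retina and from facial mesenchyme, read 121, 110.0, 83.9, 69.1 and 56.6, an excess of 2.11 ± 0.21 (adjusted p = 2.37e-10, limma). Like Foxc2 it was high in replicates 1 and 2, which were also the closest pair of arrays over all genes above background. Of 6 measured genes of kidney and its stroma 1 was above background, Lhx1 (114 ± 46.7), which neural tissue also transcribes. Foxd3, which specifies neural crest before and during migration, read 23.7, 11.5, 26.2, 12.8 and 17.8, above the level in replicates 1 and 3 alone, and did not pass (excess -0.17 ± 0.31). Of 13 genes that act with Foxd3 in crest, 11 were above background, among them Sox9 (392 ± 117), Pax3 (683 ± 86.4) and the later crest and glial gene Sox10 (35.9 ± 11.5). Foxd2 (1.12 to 1.93) and Foxd4 (up to 14.8) stayed below the level in all samples.

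The windows before Foxd1 and Foxd2 are given as a pair of paralogs of which 1 was above background.
Foxd1, chr13:98353995-98354244, plus strand: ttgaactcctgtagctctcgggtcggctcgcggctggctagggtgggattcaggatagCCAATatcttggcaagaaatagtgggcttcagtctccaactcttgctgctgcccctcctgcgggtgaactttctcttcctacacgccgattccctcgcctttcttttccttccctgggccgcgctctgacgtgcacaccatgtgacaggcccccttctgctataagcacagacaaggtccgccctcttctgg
Foxd2, chr4:114908899-114909148, minus strand: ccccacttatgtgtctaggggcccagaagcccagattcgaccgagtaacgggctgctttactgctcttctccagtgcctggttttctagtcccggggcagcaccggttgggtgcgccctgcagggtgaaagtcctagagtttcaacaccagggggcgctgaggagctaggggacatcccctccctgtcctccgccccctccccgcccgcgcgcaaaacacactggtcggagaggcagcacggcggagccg
The Foxd1 window held 12 CpG dinucleotides and 1 CCAAT match, and the Foxd2 window held 16 CpG dinucleotides and no match in capitals. Over the forkhead genes above background the median was 20.5 CpG dinucleotides per window (14 windows of 10 genes), over those not above background 9.5 (12 windows of 11 genes), and over all promoters 6. Windows of 1 gene share sequence context, so these medians are a description. The other 12 members (Foxb1, Foxc2, Foxf1, Foxh1, Foxj1, Foxk1, Foxl1, Foxm1, Foxn2, Foxo4, Foxp2 and Foxq1) had no promoter window, so their sequences were not examined.

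Foxp1, a repressor needed in heart and motor neurons, was measured by 7 probe sets, of which 6 were above background. The probe set with the highest mean read 887, 738, 728, 316 and 777 in replicates 1 to 5, an excess of 5.05 ± 0.21. Replicate 4 stood apart below the other 4 samples. The probe set second by mean read 615, 684, 589.7, 457 and 607, with replicate 4 lowest again but less far away, and the third read 492, 586, 419, 405 and 352, with replicate 5 lowest. The 3 dimmer probe sets above background had their lowest signals in replicates 2, 3 and 1, so a low replicate 4 was not common to the probe sets of Foxp1. Foxp2, known from the brain and lung, ranged from 13.5 to 32.1 on 1 probe set and exceeded the level in 3 of 5 samples without passing (excess -0.06 ± 0.30). Foxp3, the factor of regulatory T cells, was below the level in all samples (4.08 to 16.9), and 1 of 9 leukocyte genes was above background.

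Foxk2 and Foxk1 are paralogs that work with corepressors and the deubiquitinase BAP1. All 3 probe sets of Foxk2 were above background. The one with the highest mean read 818, 917, 585, 722 and 791, an excess of 5.27 ± 0.15 (adjusted p = 1.39e-22, limma), and the highest of its samples was 1.57 times the lowest. Neither probe set of Foxk1 was above background (2.23 to 13.3 and 1.08 to 20.7). Of 11 genes of FoxK partners 10 were above background, with Bap1 at 65.7 ± 19.1 and Asxl1 at 307 ± 37.4.

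Foxj2 and Foxj3 are widely transcribed FoxJ genes with little known of their part in the arches. Foxj3 read 246, 194, 169.9, 144 and 160.2, an excess of 3.19 ± 0.18, and replicate 1 was the high sample. The second Foxj3 probe set, with 19.5, 15.9, 37.4, 54.1 and 25.7, had its high sample in replicate 4 and fell short of the threshold (adjusted p = 0.0582, limma). Foxj2 read 50.03, 40.1, 56.4, 56.9 and 48.9, an excess of 1.35 ± 0.19, on one of its 2 probe sets. The third member, Foxj1, is the master regulator of motile cilia, and it was below the level in all samples (0.820 to 11.9). Of 10 measured genes of motile cilia 4 were above background, namely Dnah11 (158 ± 41.5), Tekt1, Tppp3 and Cetn2 (592 ± 147), a centriole gene that cells without motile cilia also use. The Foxj3 window with its TGTTTGC match was as follows.
Foxj3, chr4:119539411-119539660, plus strand: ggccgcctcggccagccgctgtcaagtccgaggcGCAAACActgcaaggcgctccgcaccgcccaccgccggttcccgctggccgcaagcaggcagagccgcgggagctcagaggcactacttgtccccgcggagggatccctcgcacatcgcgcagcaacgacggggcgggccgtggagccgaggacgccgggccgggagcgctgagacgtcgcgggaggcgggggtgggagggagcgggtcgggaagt

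Foxn2, a member of the FoxN group with no settled role in the arches, read 147, 225, 244, 136 and 152, an excess of 3.16 ± 0.19 (adjusted p = 2.40e-15, limma). Replicates 2 and 3 were high and the other 3 samples lay together. Foxn1, the thymus epithelium gene, was below the level in every sample (0.928 to 15.2). Foxn4, known from retina and spinal cord, read 15.7, 16.9, 13.3, 36.6 and 23.0, so replicate 4 was the high sample, and it did not pass (excess 0.00 ± 0.29).

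FoxO genes are the end point of the insulin and PI3K pathway. Foxo3 read 590.1, 429, 382, 237 and 343 in replicates 1 to 5, with a mean of 396 ± 129 and an excess of 4.27 ± 0.19. Replicate 1 was high and replicate 4 low, with a ratio of 2.49 between them, and replicate 4 was also lowest on the second Foxo3 probe set (187, against 240.2 to 354 elsewhere). Foxo1 read 45.9, 37.1, 36.2, 34.5 and 43.3, an excess of 0.99 ± 0.21 (adjusted p = 6.50e-05, limma), on 1 of its 4 probe sets. Its samples lay close together, with 1.33 times between the highest and the lowest. Foxo4 stayed below the level (0.611 to 4.43). Of 25 genes listed for PI3K and AKT control of FoxO, 20 were above background (80%, beside 53.7% of all genes). Among them were Akt1 (109 ± 41.7) and Akt2 (36.2 ± 10.2), the kinases that phosphorylate FoxO, Pdpk1 (204 ± 57.6) and Pik3ca (624 ± 87.1). The receptor genes Insr (9.17 ± 5.15) and Igf1r (16.0 ± 7.49) were not, nor were Irs2 (5.95 ± 3.14), Pik3r2 and Stk4. The list also holds regulators of FoxO outside the PI3K and AKT branch. Of 25 genes known as FoxO targets, 12 were above background, a share of 48% beside the 53.7% of all genes. The cell cycle inhibitor Cdkn1b (403 ± 182), Ccng2 (172 ± 59.7) and the death gene Bcl2l11 (336 ± 67.2) were among them. The 13 that were not included other cell cycle and death genes (Rbl2, Pmaip1, Fasl and Tnfsf10) as well as metabolic ones (G6pc, Pck1 and Igfbp1).

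Foxm1, which switches on genes of mitosis in dividing cells, was above background on 2 of its 4 probe sets. The first, whose name ends in _x_at and which may bind other transcripts, read 58.6, 54.6, 49.1, 85.0 and 53.4, with replicate 4 high (excess 1.59 ± 0.19). The second, a plain probe set, read 50.99, 29.2, 29.3, 38.7 and 29.7, with replicate 1 high (excess 0.82 ± 0.22, adjusted p = 0.00114, limma). A further probe set that names Foxm1 with other genes was left out. Of 26 Foxm1 partners and targets 24 were above background, including Lin9 (104 ± 22.3), Lin37, Rbbp4 (6891 ± 510.4) and Ccnb2 (295 ± 54.0); the list also holds the cadherin gene Cdh1. Mybl2, a partner of the same complex, was not above background (14.2 ± 5.68).

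The remaining members were not above background. Foxh1, the partner of SMAD2 in nodal signalling during gastrulation, had 3 probe sets, none above background (0.570 to 23.7). Nodal was not above background either (9.71 ± 6.84), while Smad2 (218 ± 37.8) and the activin receptors Acvr1b, Acvr2a and Acvr2b were among the 6 of 12 genes of that pathway that were. Foxb1 and Foxb2 of the neural tube, Foxe3 of the lens and Foxi1 of the otic vesicle and kidney ranged from 0.281 to 16.6 over all samples. All of these were below the level in every sample, except for 1 probe set of Foxh1, which read 23.7 in replicate 5, just over that array's level of 23.4, and 1.87 or less elsewhere.

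The call of a gene went with how many probe sets measured it. By the rule used, a gene with more probe sets had more chances of a call, since 1 passing probe set was enough. Of the 23 forkhead genes with 1 probe set 5 were above background (21.7%), and of the 10 with 2 or more it was 8. Over all genes the shares were 40.9% of 7437 with 1 probe set and 73.0% of 4956 with more. Of those 8 forkhead genes, 2 (Foxc1 and Foxk2) had every probe set above background, and 6 had at least 1 that was not. Over all forkhead probe sets, 23 of 55 were above background, against 49.9% of all probe sets. Of the 20 genes not above background, 18 rest on 1 probe set, and 15 of the 20 lay below the level in every sample on the probe set with the highest mean.

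**Figure D2:**
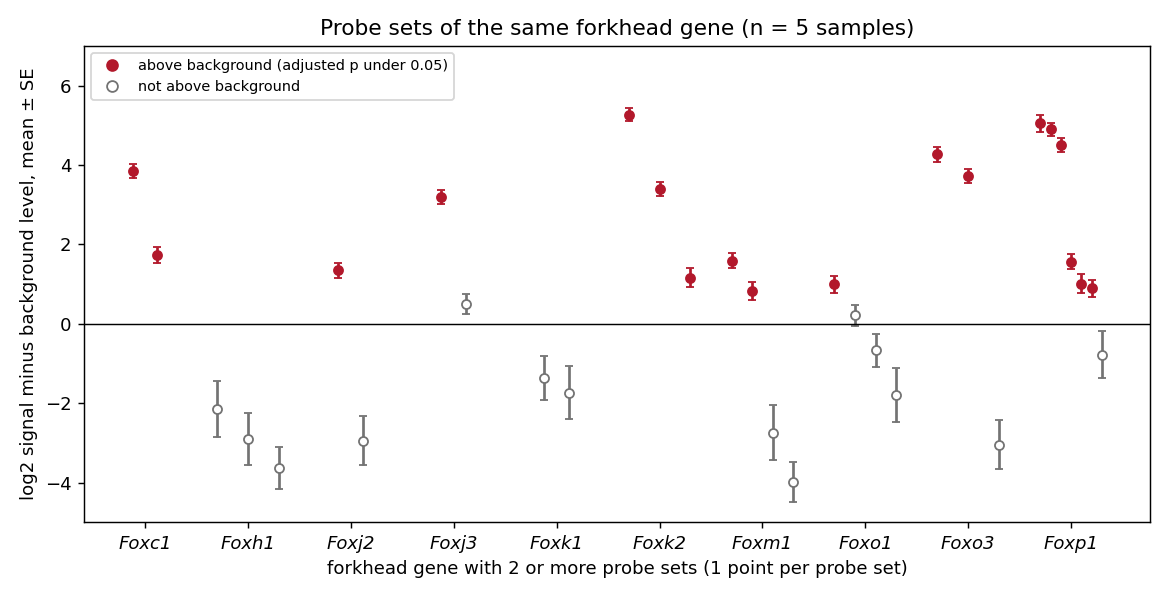
Excess over the background level (log2 signal minus level, mean ± SE, n = 5 samples) of each probe set of the 10 forkhead genes with 2 or more probe sets. Filled points were above background and open points were not: Foxc1 and Foxk2 have filled points alone, Foxh1 and Foxk1 open points alone, and the other 6 genes have both.

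Next came the spread between the 5 samples. Of 15 forkhead genes whose mean lay above the level, 0 had a variance above that of genes with a similar mean (F test against limma's variance trend, adjusted p below 0.05), against 6 of 7380 genes (0.0813%). At an unadjusted p below 0.05 it was 1 of the 15, Foxp1, against 5.58% of all genes. The variance of Foxp1 was 5.27 times the trend (adjusted p = 0.792, limma trend), and without replicate 4 it was 0.29 times the trend, so this value rests on that sample. Foxc2 followed with 3.18 times (adjusted p = 0.905, limma trend) and Foxo3 with 2.96 times (adjusted p = 0.926, limma trend). The median SD between samples was 0.36 log2 units over the 13 forkhead genes above background and 0.30 over all genes above background. Among the forkhead genes it ran from 0.18 (Foxo1) to 0.59 (Foxp1).

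The samples at the top and bottom were not evenly shared. Of the 13 genes, 7 had their highest signal in replicate 1 (Foxa2, Foxc2, Foxd1, Foxj3, Foxo1, Foxo3 and Foxp1), against 21.6% of all genes above background. In replicate 4 the signal was lowest for 7 of the 13 (Foxa2, Foxc2, Foxj3, Foxn2, Foxo1, Foxo3 and Foxp1), against 23.8% of all genes. Foxc1, Foxj2 and Foxm1 went the other way, with their highest signal in replicate 4. These counts use the probe set of each gene with the highest mean, and other probe sets differed in part. The probe set second by mean was highest in replicate 4 for Foxj3 and in replicate 2 for Foxo3 and Foxp1. It was highest in replicate 1 for Foxc1, Foxk2, Foxm1 and Foxo1, and in replicate 5 for Foxj2. So Foxc1, Foxj2 and Foxm1 were not highest in replicate 4 on that probe set. It was lowest in replicate 4 for Foxk2, Foxo1, Foxo3 and Foxp1. For Foxj2, Foxj3 and Foxm1 it was lowest in replicate 2, and for Foxc1 in replicate 3. The mean deviation of the 13 genes was 0.23 log2 units in replicate 1 and -0.22 in replicate 4, and for all genes above background it was 0.03 and -0.03. With quantile normalization between arrays the counts were again 7 and 7. Genes are not independent replicates, and this pattern was not tested. The summed signal of the 13 neuron and neural tube genes, all above background, was also lowest in replicate 4, at 4442 against 5984 to 7751 elsewhere. The sums of the erythroid (10500 against 12824 to 19068), liver and gut (157 against 310.2 to 869), leukocyte (217 against 279 to 422), kidney (134 against 181 to 217) and second heart field lists (1686 against 1750.2 to 2094) were lowest there too. Apart from the erythroid list, most genes of these lists were not above background. In replicate 4 Coro1a (128) made up most of the leukocyte sum, and Isl1 (1095) most of the second heart field sum. Ttr (34.4 against 253 to 508) and Lhx1 (43.0 against 92.2 to 159) were lowest in replicate 4 too. They were the only genes above background of the liver and gut list and the kidney list. The endothelium (921 against 748 to 835) and surface ectoderm sums (1246 against 918 to 1224) were instead highest in replicate 4. The arch mesenchyme, pharyngeal endoderm, forebrain and paraxial mesoderm sums were lowest in replicate 3. The arch mesenchyme and neural crest sum was highest in replicate 1, at 7198 against 5558 to 6344 elsewhere. What part any of these had in the forkhead signals was not tested.

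**Figure D3:**
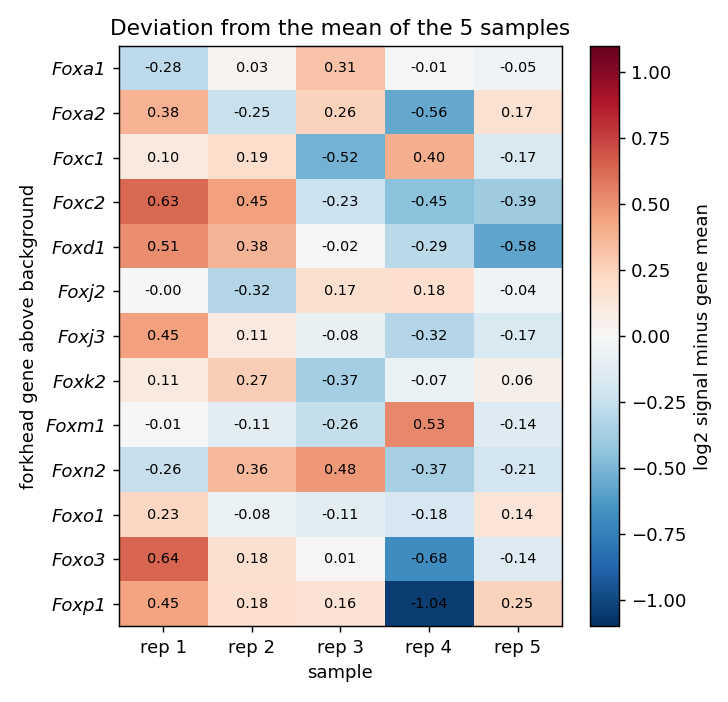
Deviation of each of the 13 forkhead genes above background from its mean over the 5 samples, in log2 units, with samples in columns and genes in rows (red above the mean, blue below). Foxp1 in replicate 4 has the most negative cell (-1.04), and the FoxC pair have opposite signs in replicate 4 (0.40 for Foxc1 and -0.45 for Foxc2).

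Pathway genes around the forkhead factors were above background to different extents. Of 13 hedgehog genes, which act upstream of several FoxA, FoxC, FoxD and FoxF genes, 6 were above background. Among them were the receptor Ptch1 (3173 ± 318), Smo (46.3 ± 13.3), Gli2 (54.3 ± 14.9) and Sufu (62.1 ± 16.2). The ligands Shh (10.2 ± 3.43), Ihh (5.52 ± 3.76) and Dhh (3.77 ± 1.45) were not, nor were Gli1 (18.0 ± 6.06), Gli3, Hhip and Cdon. Of 19 FoxC partners and targets 10 were above background, including Isl1, Dll1 (87.5 ± 14.6), Notch1 (362.6 ± 122.7) and Hey1 (484 ± 49.98). Those that were not included Tbx1 (28.2 ± 10.9), Fgf8 (1.01 ± 0.384) and Fgf10 (13.4 ± 6.20), and the Notch pathway genes Dll4 (6.92 ± 3.62) and Notch4 (24.4 ± 9.18). Of 15 FoxP partners 11 were above background, with the repressor subunits Hdac1 (359 ± 102) and Gatad2a (1132 ± 341). The shares of these lists are descriptions beside the 53.7% of all genes, and no list was tested.

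**Figure D4:**
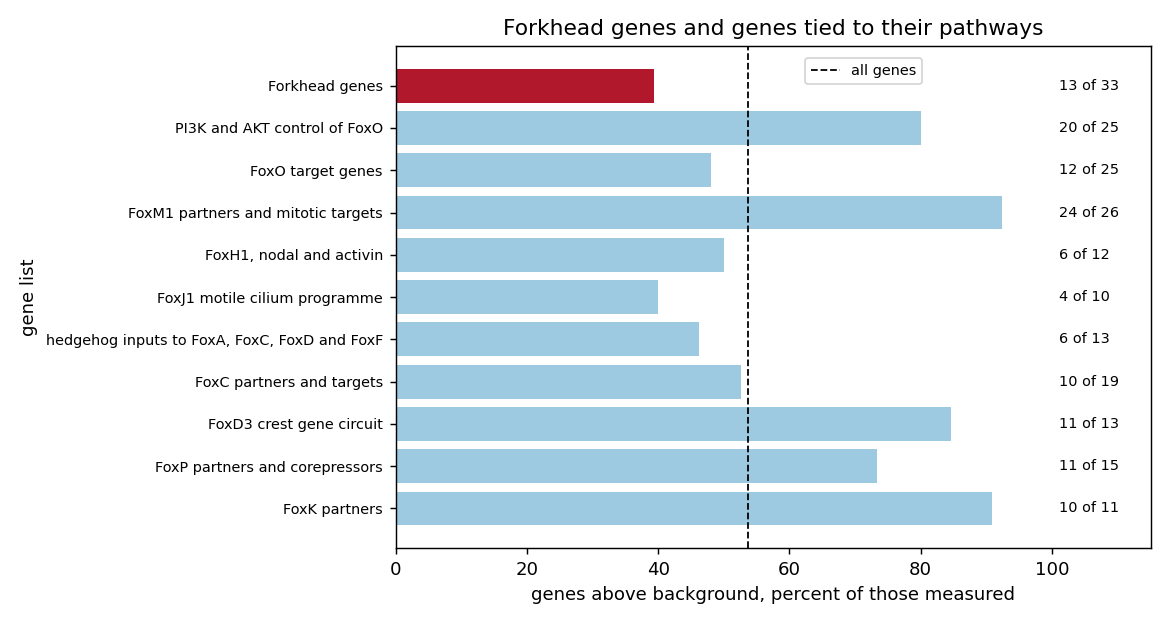
Share of measured genes above background in percent for the forkhead family (red bar, 13 of 33) and for 10 lists of genes tied to its members (blue bars), with the count at the right and the share of all genes (53.7%) as a dashed line. The lists of Foxm1 (24 of 26) and FoxK partners (10 of 11) have the longest bars, and the motile cilium list (4 of 10) is about as long as that of the forkhead family.

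The number of forkhead genes above background depended on where the level was set. It was 10 with the 99th percentile of the background probe sets, 14 with the 90th, and 7 with a level 4 times as high. Foxc1, Foxc2, Foxk2, Foxo3 and Foxp1 were above background under all 15 alternatives. The call of Foxj2, Foxm1 and Foxo1 was lost when all probe sets of a gene were averaged.

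**Figure D5:**
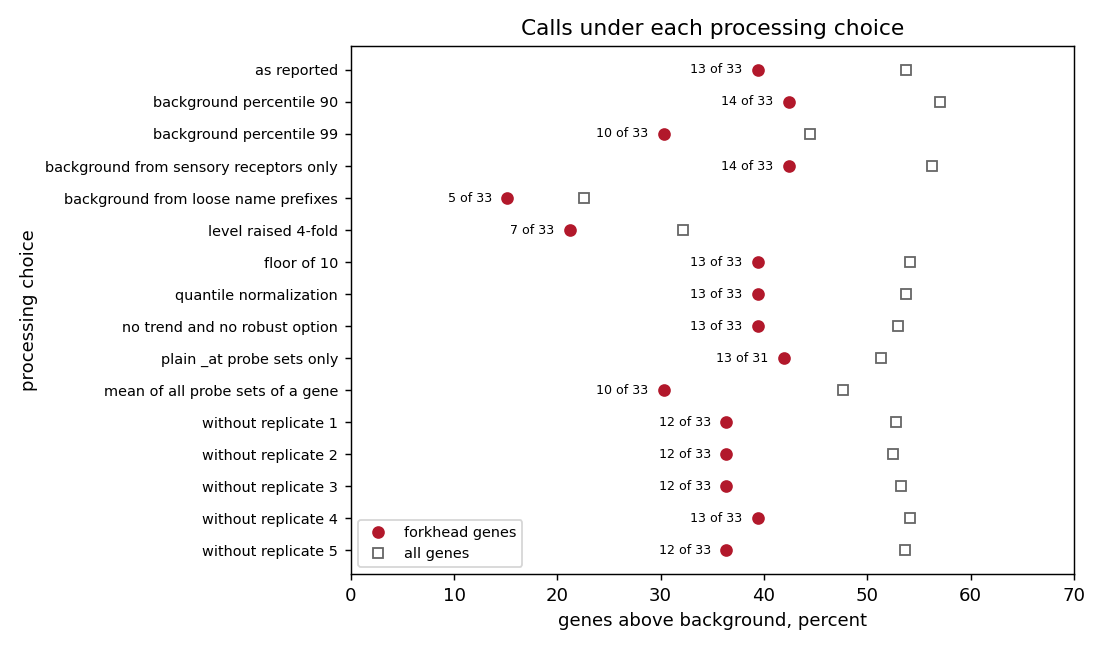
Share of genes above background in percent under the reported processing (top row) and 15 alternatives, for forkhead genes (red circles, with counts) and all genes (open squares). The forkhead share lay below that of all genes in every row, from 5 of 33 with loosely chosen background genes to 14 of 33.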

How the data were processed

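The members and gene lists were chosen with earlier results of these data known. The deposited table held intensity values, 1 linear signal per probe set and array, made by the authors with GCOS, per the submitters' processing notes. Its version and settings are not given in the sources used here. Every array had a mean of 150.0 once 2% of its probe sets at either end were trimmed, so the arrays had been scaled alike. Detection calls and single probes were not used here.

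Of 22690 probe sets, 64 controls were left out. Of the other 22626, 20380 had 1 gene, 691 several and 1555 none. Gene symbols were brought up to date by Entrez identifier from RefSeq (20351 matched, 29 kept). Log2 was taken after setting signals below 1 to 1. The level of an array was the 95th percentile over the background probe sets, and limma 3.58.1 (R 4.3.3; lmFit, eBayes with trend and robust) tested log2 signal minus that level over all 22626 probe sets, treating the level as known. The value shown for a gene is that of the probe set whose mean log2 signal was highest. Both tests were run on simulated data with independent normal noise, SDs from limma's variance trend and a known level. Those are assumptions of the tests themselves, so that run cannot show how they perform on these arrays. All forkhead genes are accounted for. Of other lists up to 4 members above background, the first in list order, are named. Tbx1, Fgf10, Fgf8, Nkx2-5, Shh, Gli1, Mybl2, Nodal, Cdh1, Rbl2, Pmaip1, Fasl, Tnfsf10, Pck1, G6pc, Igfbp1, Insr, Igf1r, Irs2, Pik3r2, Stk4, Dll4 and Notch4 were named after their values were seen. The same holds for Dlx5, Hand2, Alx4, Snai1, Nkx2-1, Pax9, Gata6, Ihh, Dhh, Gli3, Hhip and Cdon. The number of arrays, 5, limits the precision. In the limma fit the variance of each probe set was pulled toward a trend over all probe sets. The SEs and p-values given therefore do not rest on the 5 values of a probe set alone. For Foxk2 the adjusted p was 1.39e-22 as reported, 8.20e-07 without trend and robust options and 2.73e-243 with a floor of 10 (limma).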

Additional observations from a re-analysis of the deposited data

Results flagged for a closer look

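The Foxp1 probe set with the highest mean had a sample far from the other 4: its signal was 315.9 in replicate 4, against 728 to 887 elsewhere. Of 23 forkhead probe sets above background that were tested for such a sample on the log2 scale, this was the 1 found, and chance gives about 1 in 20. None of the other 5 probe sets of Foxp1 above background had such a sample.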

How the results depend on the processing

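Among the values of single forkhead genes under the 15 alternatives, 450 kept their direction and their side of the threshold. Calls were lost 25 times and gained 3 times (Foxq1 each time). The excess changed sign 30 times, 15 times in genes above background, which then lost the call, and 15 times in genes that were not above background before or after. The count of forkhead genes above background was 13 with a floor of 10, quantile normalization or plain probe sets only (13 of 31), and 12 to 13 when each replicate was left out. It moved to 5, with 2803 genes in all, when background genes were picked by loose name prefixes, which take in widely expressed casein kinases and interferon receptors, and to 7, with 3991 genes in all, when the level was raised 4-fold. Under the loose prefixes the excess changed sign for Foxa1 (-1.71), Foxa2 (-2.44), Foxd1 (-0.85), Foxj2 (-1.61), Foxm1 (-1.37), Foxo1 (-1.96), Foxn4 (-2.95) and Foxq1 (-2.57), since a higher level lowers every excess. Under the 4-fold level it did so for Foxa1 (-0.75), Foxa2 (-1.48), Foxj2 (-0.65), Foxm1 (-0.41), Foxo1 (-1.01), Foxn4 (-1.996) and Foxq1 (-1.61), and with the 99th percentile for Foxa2 (-0.34), Foxn4 (-0.85) and Foxq1 (-0.47). Foxd3 and Foxp2 changed sign with the 90th percentile (0.16 and 0.27) and with sensory receptors only (0.091 and 0.20), and Foxp2 with plain probe sets (0.085). With each replicate left out, Foxp2 ranged from -0.19 to 0.11 and Foxn4 from -0.17 to 0.14. Averaging the probe sets of a gene turned the sign of Foxj2 (-0.80), Foxm1 (-1.08) and Foxo1 (-0.31), because dim probe sets enter the mean. The number of all genes varying above the trend was 0 without trend and robust options in limma (319 at an unadjusted p below 0.05), 10 with plain probe sets, and 3 to 14 when each replicate was left out; the cause was not tested. For forkhead genes it was 0 under every alternative (0 to 3 at an unadjusted p below 0.05). No paired analysis was possible because there is 1 group.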
